A study of Mus musculus with 24 samples.

Results

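Livers whose hepatocytes were made to lack both JNK1 and JNK2 were compared with livers that carried the Cre transgene alone, in mice kept on chow. The comparison took the 3 chow Jnk1Jnk2 libraries and the 3 chow control libraries by their titles, 6 of the 24 liver RNA-seq libraries of the study. It covered all 31027 loci of the deposited expression table, of which 10562 had a mean of at least 1 FPKM over the 24 libraries and were tested. FPKM divides fragments by transcript length and by library total, so levels can be set beside each other between genes.

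The chow Jnk1Jnk2 group, called the mutants below, is AlbCre+ Jnk1flox/floxJnk2flox/flox, and the chow control group is AlbCre+. All were C57BL/6J mice, on chow for 16 weeks. The study crossed 4 genotypes with 2 diets, with 3 libraries in each of the 8 groups. Set beside the main comparison are chow Jnk1 (AlbCre+ Jnk1flox/flox), chow Jnk2 (AlbCre+ Jnk2flox/flox) and, from mice of the same strain on a high fat diet for 16 weeks, high fat Jnk1Jnk2 and high fat control. Every group carries AlbCre, and the submitters label the floxed genotypes as knock down. Alb-Cre is driven by the albumin promoter and deletes floxed alleles in hepatocytes, so the other cells of these livers keep both genes. The sources used here do not give age, sex or collection time, or say whether replicates are separate mice, and p-values therefore measure only how these libraries spread, which may be technical.

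JNK1 and JNK2 are stress-activated MAP kinases encoded by Mapk8 and Mapk9. MKK4 and MKK7 phosphorylate and activate them, dual specificity phosphatases switch them off, and the scaffold proteins of the JIP family bring the cascade together. Their best known targets are c-Jun and JunD, the AP-1 transcription factors, and in the liver they are known for their part in cell death, in the response to overfeeding and in the control of PPARα and of the hormone FGF21.

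The sum of FPKM was 702973, 664093 and 669280 in the chow Jnk1Jnk2 libraries and 639580, 676933 and 654345 in the chow control libraries. Depth relative to the deepest library of the study was read from loci under 1 FPKM in all libraries. It rests on the commonest ratio of a library's values to those of chow control replicate 1, taken as 1 fragment in each. By this reading depth was 0.747, 0.688 and 0.737 in chow Jnk1Jnk2, and 1, 0.497 and 0.314 in chow control. That made chow control replicate 3 the shallowest of the 6. Chow control replicate 3 also stood apart in content. The summed FPKM of 20 muscle, adipose and pancreas markers was 900.9 there, against 10.7 and 11.8 in the other controls and 5.45 to 7.5 in chow Jnk1Jnk2. Its chymotrypsinogen gene Ctrb1 was at 347 FPKM, where the other 5 libraries were at or below 0.139. Its part in the results below was not tested beyond leaving the library out. The 17 hepatocyte markers summed to between 36890 and 38090 FPKM in chow Jnk1Jnk2 and between 36570 and 38630 in chow control, and 0 of them were at 0 in all 6 libraries.

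Mapk8, the gene of JNK1, was at 1.99, 1.90 and 2.47 FPKM in chow Jnk1Jnk2, against 5.02, 5.77 and 4.76 in chow control. Mapk9, the gene of JNK2, was at 6.61, 6.04 and 6.46 FPKM in chow Jnk1Jnk2 and at 9.83, 9.19 and 10.8 in chow control. Mapk8 fell by 0.99 ± 0.11 and Mapk9 by 0.57 ± 0.08 as differences of log2(FPKM + 1) (limma, Benjamini-Hochberg adjusted p = 4.02e-05 and 0.00189, 3 libraries per group). Both genes went with the labels in every library, and for neither did the groups overlap. Values are per locus, so they include reads of exons that stay in place and of cells in which Alb-Cre does not act, and fewer cells of a type cannot be told apart from less RNA per cell in whole liver. Mapk10, the gene of the neuronal JNK3, was listed at 0 in all 3 chow Jnk1Jnk2 libraries and reached 0.0112 FPKM in 1 chow control library, so it was under the level tested.

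Few loci passed the test. In a limma-trend fit of log2(FPKM + 1) over all 24 libraries, with Benjamini-Hochberg adjustment over the 10562 loci, 17 loci were called at an adjusted p under 0.05, which is 0.161% of those tested. Of these 3 were higher and 14 lower in chow Jnk1Jnk2, and the lower ones make up 0.133% of tested loci. Quantile normalization gave 4 higher and 8 lower. All 17 had 3 mutant libraries on one side of all 3 controls, against a background of 20.1% of tested loci wholly below control and 4.11% wholly above it. The count was 9 and 11 with chow Jnk1Jnk2 replicate 1 or 2 left out, and 11 and 10 with chow control replicate 1 or 3 left out. A call held with each of the 6 libraries left out in turn at 9 loci, among them Pttg1, Hist1h2ba, BC044868, Fam25c, Mapk8, Gm3219, Jund and Mapk9, and was lost at least once at the other 8. Below, changes are differences of log2(FPKM + 1) ± SE with 3 libraries per group, and they understate the change of low genes.

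**Figure D1:**
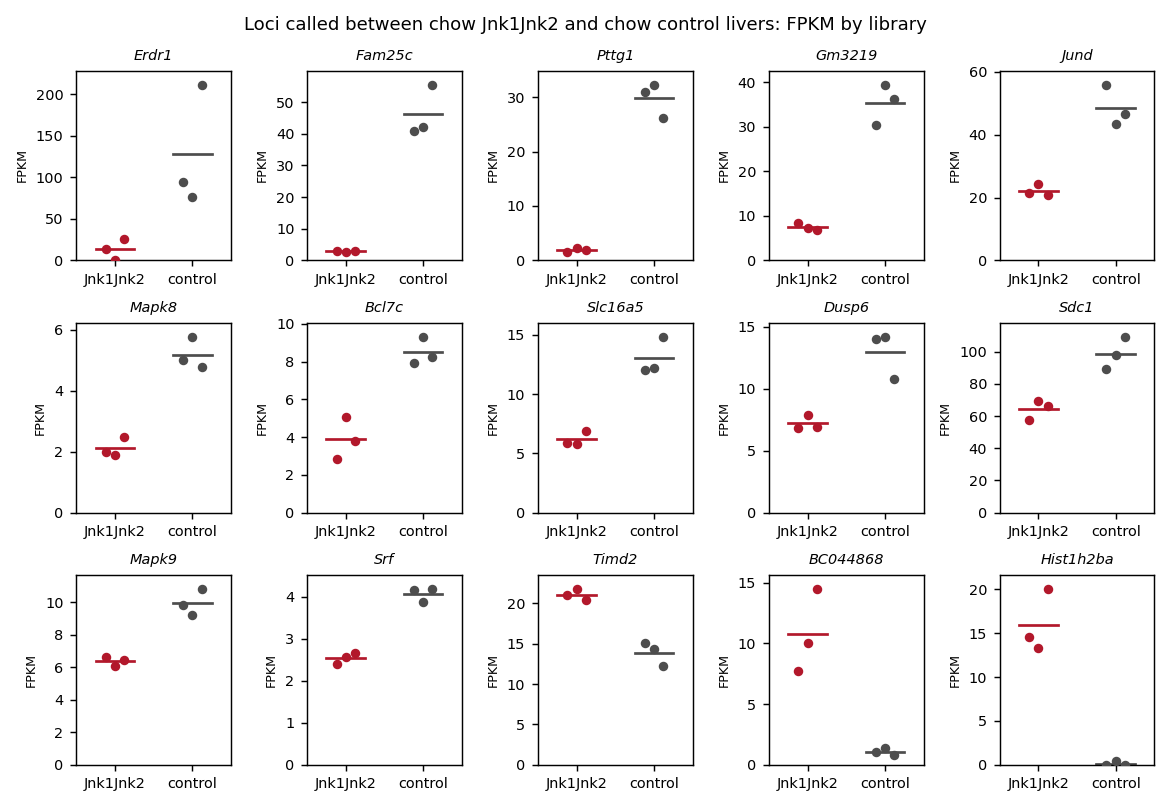
FPKM (y axis, from 0) of 15 of the 17 loci called between chow Jnk1Jnk2 (left, red) and chow control (right, grey) livers, 1 point per library and a bar at the mean of 3. In all 15 panels the groups do not overlap; Erdr1 spreads from 0.381 to 25.8 in the mutants and from 76.6 to 211 in the controls.

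Among the transcription factor genes that JNK acts on, Jund fell. Jund (chromosome 8, 70697739 to 70700616, mm10) was at 21.5, 24.5 and 20.7 FPKM in chow Jnk1Jnk2, against 56.0, 43.5 and 46.6 in chow control. Every mutant library was below every control. The change was -1.09 ± 0.16 (adjusted p = 0.00143), and it stayed between -1.17 and -0.99 with each library left out. Its transcript is rich in G and C, at 67.1%, and with the trends of each library on transcript length and GC content removed the change was -0.67 (adjusted p = 0.226).

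Jun, which encodes c-Jun, did not pass. It was at 2.80, 4.69 and 2.30 FPKM in chow Jnk1Jnk2 and at 14.0, 6.78 and 5.56 in chow control, with no overlap, and its change was -1.14 ± 0.27 (adjusted p = 0.136). Chow control replicate 1 held the highest value, and without it the change was -0.78 (adjusted p = 0.326). Fos, the c-Fos gene and another early response gene, was at 0.456, 1.33 and 0.309 FPKM in the mutants and at 18.2, 0.954 and 0.665 in the controls. Chow control replicate 1 again stood alone, and the change of Fos was -1.27 ± 0.56 with it and -0.13 without it (adjusted p = 0.347 and 0.898). Ier2, an immediate early gene, was at 11.9, 16.8 and 10.0 FPKM in the mutants, against 29.1, 12.1 and 14.4 in the controls (adjusted p = 0.511).

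Srf encodes serum response factor, which binds the CArG box in front of early response and actin genes. Srf (chromosome 17, 46546839 to 46556162, mm10) was at 2.39, 2.56 and 2.66 FPKM in chow Jnk1Jnk2 and at 4.16, 3.87 and 4.18 in chow control. The 3 mutant libraries lay below the 3 controls, and Srf fell by 0.52 ± 0.10 (adjusted p = 0.0285). The call was lost with any of the 6 libraries left out, at adjusted p = 0.0652 to 0.192, while the change kept between -0.55 and -0.49. With quantile normalization it was -0.43 (adjusted p = 0.0512), and with length and GC trends removed -0.33 (adjusted p = 0.085).

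The promoters of Srf, Jun and Fam25c are shown because they held the motifs that were searched for: the AP-1 element TGANTCA, the related TGACNTCA, to which c-Jun with ATF2 binds, and the CArG box by name. The stretches run from 250 bases before to 50 after each gene's start in RefSeq, build GRCm38.p6, 5′ to 3′ on the gene's strand, with every match on either strand in capitals.
Srf, chr17:46556113-46556412, minus strand: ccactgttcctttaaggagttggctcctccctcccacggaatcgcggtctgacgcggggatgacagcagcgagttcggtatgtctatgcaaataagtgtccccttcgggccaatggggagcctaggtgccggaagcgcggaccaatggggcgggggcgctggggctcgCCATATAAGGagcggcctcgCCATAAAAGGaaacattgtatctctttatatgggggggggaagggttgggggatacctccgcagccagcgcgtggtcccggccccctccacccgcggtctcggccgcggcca
Jun, chr4:95052173-95052472, minus strand: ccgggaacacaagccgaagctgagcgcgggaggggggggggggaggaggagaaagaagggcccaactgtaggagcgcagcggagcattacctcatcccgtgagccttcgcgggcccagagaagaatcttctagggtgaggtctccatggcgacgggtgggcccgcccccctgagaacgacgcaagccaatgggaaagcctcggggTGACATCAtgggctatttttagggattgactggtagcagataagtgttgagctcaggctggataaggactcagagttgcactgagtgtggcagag
Fam25c, chr14:34355344-34355643, minus strand: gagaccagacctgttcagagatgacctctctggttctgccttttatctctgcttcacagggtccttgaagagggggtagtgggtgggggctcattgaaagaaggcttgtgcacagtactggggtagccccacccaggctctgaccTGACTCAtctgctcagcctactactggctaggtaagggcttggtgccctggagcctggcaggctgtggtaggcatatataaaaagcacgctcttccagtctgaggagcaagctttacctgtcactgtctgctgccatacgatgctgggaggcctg
In the Srf promoter the CArG boxes begin 82 and 62 bases before the start. In Jun the TGACNTCA match begins 45 bases before the start, and in Fam25c the AP-1 element begins 105 bases before it. Of 32851 promoters of this length, 7.81% held TGANTCA, 8.83% TGACNTCA and 1.63% a CArG box. Of the symbols of 15 called loci 10 had a promoter in the table, and among those 1 held TGANTCA (Fam25c), 0 TGACNTCA and 1 a CArG box (Srf). A match describes these letters and is not a site.

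The upstream kinases of JNK did not pass the test. Map2k4, which encodes MKK4, was at 9.44, 9.88 and 9.48 FPKM in chow Jnk1Jnk2 and at 10.7, 10.0 and 10.9 in chow control (-0.12 ± 0.08, adjusted p = 0.58). Map2k7, which encodes MKK7, was at 9.60, 9.96 and 10.3 FPKM in the mutants, against 12.1, 10.9 and 12.0 in the controls (-0.21 ± 0.12, adjusted p = 0.471). In both genes the mutant libraries lay below the controls by less than the test could call. Among the phosphatases that act on JNK, Dusp16 was at 3.92, 4.72 and 5.23 FPKM in the mutants and at 5.52, 6.15 and 7.36 in the controls (-0.38 ± 0.13, adjusted p = 0.249). Dusp1 was at 7.24, 17.0 and 7.27 FPKM in the mutants against 32.3, 11.8 and 14.4 in the controls, with overlap (-0.81 ± 0.32, adjusted p = 0.308). The JNK cascade list, which holds the kinases, scaffolds and phosphatases of the pathway, had 2 of 21 tested members called, Mapk8 and Mapk9 themselves, both lower. At an unadjusted p under 0.05 it had 5 lower members (23.8%) and 0 higher, against 10.6% lower and 2.06% higher of all tested loci. Mapk8 and Mapk9 are among these 5, and as the targeted genes their fall was set by the design. The list's median change was -0.125, against -0.0735 over all tested loci.

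The phosphatase of the neighbouring ERK pathway did pass. Dusp6, which encodes the phosphatase MKP-3 that acts on ERK and is itself an ERK-induced transcript, was at 6.86, 7.88 and 6.91 FPKM in chow Jnk1Jnk2, against 14.0, 14.2 and 10.8 in chow control. The groups did not overlap, and Dusp6 fell by 0.76 ± 0.15 (adjusted p = 0.0443). The call was lost without any 1 library other than chow control replicate 3, at adjusted p = 0.0762 to 0.29. Other settings fitted numbered 12, and Dusp6 was called in 4 of them. The call was lost with size factors (adjusted p = 0.0904), with quantile normalization (0.0763) and with the length trend removed (0.0811). Of the other 12 tested members of the list of ERK, p38 and ERK5 pathway genes 0 were called. Map2k5, the kinase above ERK5, was at 6.48, 7.79 and 7.01 FPKM in the mutants and 8.35, 8.96 and 8.09 in the controls (adjusted p = 0.338). Dusp3, another MAP kinase phosphatase gene, was at 12.0, 12.8 and 10.5 in the mutants against 13.6, 15.0 and 16.6 in the controls (adjusted p = 0.342). The list's median was -0.188. The AP-1 and immediate early list had 1 of 17 members called, Jund, and a median of -0.108. At an unadjusted p under 0.05 it had 3 lower (17.65%) and 0 higher, against 10.6% and 2.06% of all tested loci. Wholly below control lay 3 members (17.6%), against 20.1% of all tested loci.

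**Figure D2:**
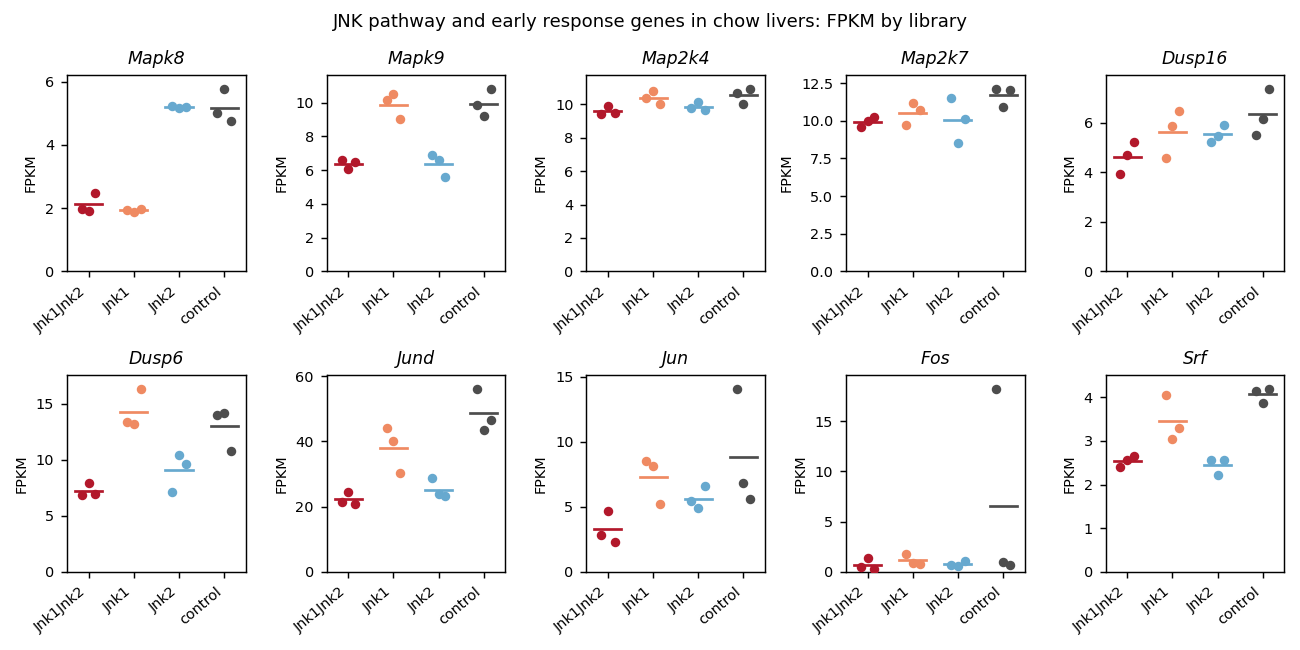
FPKM (y axis, from 0) of 10 JNK pathway and early response genes in the chow Jnk1Jnk2, Jnk1, Jnk2 and control livers, from left to right, 1 point per library and a bar at the mean of 3. Jund lies at 20.7 to 24.5 in Jnk1Jnk2 and at 43.5 to 56.0 in control, and 1 control library carries the high values of Jun (14.0) and Fos (18.2).

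Besides Mapk8 and Mapk9 themselves, 2 of the 158 tested loci within 20 Mb of Mapk8 were called (1.27%) and 2 of the 211 within 20 Mb of Mapk9 (0.948%), against 0.161% of all tested loci. On chromosome 14, Fam25c (34351882 to 34355393, mm10) starts 0.974 Mb from Mapk8 and Gm3219, which RefSeq lists as a transcribed pseudogene, 0.967 Mb from it. Fam25c was at 2.80, 2.75 and 3.10 FPKM in chow Jnk1Jnk2 and at 40.8, 42.2 and 55.5 in chow control, a fall of 3.59 ± 0.32 (adjusted p = 1.37e-06). Gm3219 was at 8.35, 7.19 and 6.91 FPKM in the mutants and at 30.4, 39.5 and 36.2 in the controls, a fall of 2.10 ± 0.25 (adjusted p = 9.29e-05). In both the groups were far apart, and these neighbours were also low in chow Jnk1 libraries and not in chow Jnk2 libraries. Fam25c was at 8.19, 4.46 and 2.35 FPKM in chow Jnk1 and at 51.1, 34.6 and 40.7 in chow Jnk2. Gm3219 was at 8.20, 4.37 and 8.17 FPKM in chow Jnk1 and at 28.7, 30.2 and 30.4 in chow Jnk2.

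On chromosome 11, Pttg1 (43420248 to 43426248, mm10) encodes securin, which keeps sister chromatids from separating before anaphase, and starts 6.43 Mb from Mapk9. Pttg1 was at 1.53, 2.21 and 1.81 FPKM in chow Jnk1Jnk2, against 30.9, 32.3 and 26.1 in chow control, a fall of 3.43 ± 0.18 (adjusted p = 3.18e-10). Timd2, a mouse receptor for H-ferritin, starts 3.18 Mb from Mapk9 and was at 21.0, 21.8 and 20.4 FPKM in the mutants, against 15.1, 14.4 and 12.2 in the controls. Timd2 rose by 0.57 ± 0.11 (adjusted p = 0.0328), and the call was lost with any of the 6 libraries left out (adjusted p = 0.0569 to 0.192). Pttg1 was also low in chow Jnk2, at 1.31, 0.930 and 1.32 FPKM, and at 34.6, 22.8 and 29.4 in chow Jnk1. Timd2 was at 19.0, 20.8 and 20.9 FPKM in chow Jnk2 and at 12.1, 13.1 and 14.0 in chow Jnk1. In each of these 4 loci the single knockout that shared the change was the one whose floxed gene lies on the same chromosome. Linked alleles of the strain in which a gene was targeted cannot be told apart here from an effect of its loss.

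Other loci near the targeted genes did not pass. Around Mapk8, Oxnad1 was at 5.65, 5.82 and 5.70 FPKM in the mutants and at 8.31, 7.74 and 6.63 in the controls (-0.34 ± 0.09, adjusted p = 0.189), and Zfp488, a zinc finger gene, was at 3.98, 3.78 and 3.68 in the mutants against 5.52, 5.10 and 4.89 in the controls (adjusted p = 0.22). Around Mapk9, Mgat1, which starts the building of complex N-glycans, was at 19.4, 21.6 and 19.9 FPKM in the mutants and at 27.1, 26.0 and 26.5 in the controls (-0.37 ± 0.11, adjusted p = 0.202). Tbc1d9b, a Rab GTPase-activating protein gene, was at 7.90, 8.67 and 8.47 FPKM in the mutants against 12.0, 12.7 and 10.1 in the controls (adjusted p = 0.22). Within 20 Mb of Mapk8, 9 loci were higher (5.7%) and 10 lower (6.33%) at an unadjusted p under 0.05, and within 20 Mb of Mapk9 2 were higher (0.948%) and 26 lower (12.3%), against 2.06% and 10.6% of all tested loci.

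Away from both targeted genes, Hist1h2ba and BC044868 rose. Hist1h2ba (chromosome 13, 23933773 to 23934156, mm10), a testis variant of histone H2B, was at 14.5, 13.3 and 20.0 FPKM in chow Jnk1Jnk2 and listed at 0, 0.387 and 0 in chow control. The fitted change was 3.91 ± 0.30 (adjusted p = 2.48e-07), and with 2 controls listed at 0 its size depends on the pseudocount. H2B genes are near-identical copies, so reads may be split between them. Of the 13 tested members of the histone list 1 was called, Hist1h2ba itself, against 0.161% of all tested loci. Hist1h2ba was at 4.84, 9.26 and 12.5 FPKM in chow Jnk1 and at 5.67, 13.8 and 10.6 in chow Jnk2, so each group with a floxed allele was above all controls.

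BC044868 (chromosome 19, 23051550 to 23075924, mm10), a locus without a RefSeq entry in the tables used here, was at 7.76, 10.0 and 14.5 FPKM in chow Jnk1Jnk2, against 1.03, 1.35 and 0.819 in chow control. The lowest mutant library was far above the highest control, and BC044868 rose by 2.48 ± 0.21 (adjusted p = 7.19e-07). It was at 1.39, 1.16 and 0.709 FPKM in chow Jnk1 and at 0.715, 0.773 and 0.910 in chow Jnk2. It differed from both single knockouts, by 2.47 from chow Jnk1 (adjusted p = 1.14e-06) and by 2.67 from chow Jnk2 (adjusted p = 5.87e-07).

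Erdr1 is a pseudoautosomal gene, listed here on chromosome Y. It was at 13.3, 0.381 and 25.8 FPKM in chow Jnk1Jnk2, against 94.6, 76.6 and 211 in chow control, and its change was -3.85 ± 0.73 (adjusted p = 0.0295). The mutant libraries differed widely among themselves. Without chow Jnk1Jnk2 replicate 2 the change was -2.57 (adjusted p = 0.06), and the call held only when chow Jnk1Jnk2 replicate 3 was the library left out.

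Among the loci that fell, Bcl7c, which encodes a subunit of the BAF chromatin remodelling complex, was at 2.81, 5.08 and 3.79 FPKM in the mutants and at 7.92, 9.31 and 8.25 in the controls (-0.98 ± 0.17, adjusted p = 0.0129). Its call was lost with chow Jnk1Jnk2 replicate 1 left out (adjusted p = 0.143) or replicate 3 (0.0641), and with chow control replicate 2 left out (0.0785) or replicate 3 (0.0595).

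Slc16a5, a gene of the monocarboxylate transporter family, was at 5.91, 5.80 and 6.85 FPKM in chow Jnk1Jnk2 and at 12.0, 12.2 and 14.8 in chow control (-0.96 ± 0.17, adjusted p = 0.0143). The mutants lay at about the same level as each other and below all controls. The call was lost with chow Jnk1Jnk2 replicate 1 left out (adjusted p = 0.11) or replicate 2 (0.0762), with chow control replicate 3 left out (0.131) and with size factors (0.0551). In chow Jnk1 the same gene was higher than in control, by 0.83 (adjusted p = 0.0109), at 26.5, 28.6 and 17.9 FPKM, and chow Jnk1Jnk2 differed from chow Jnk1 by -1.79 (adjusted p = 3.78e-06).

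Sdc1 encodes syndecan-1, a heparan sulfate proteoglycan through which hepatocytes take up remnant lipoproteins. It was at 57.8, 69.5 and 66.2 FPKM in chow Jnk1Jnk2 and at 89.4, 98.0 and 109 in chow control (-0.61 ± 0.12, adjusted p = 0.0432). The groups did not overlap, and the call was lost with any of the 6 libraries left out (adjusted p = 0.0598 to 0.364).

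The same loci were read in the single knockouts on chow. These comparisons share the control libraries with the main one, so their values are set side by side. Of the 17 loci 7 were also called in chow Jnk1 against control, where 2.2% of tested loci were called, 6 of them in the same direction and Slc16a5 in the opposite one. In chow Jnk2 against control, where 0.454% were called, 7 were called, all in the same direction. Jund was at 44.0, 40 and 30.1 FPKM in chow Jnk1 and at 28.8, 23.8 and 23.1 in chow Jnk2. Its change was -0.36 in chow Jnk1 (adjusted p = 0.292) and -0.92 in chow Jnk2 (adjusted p = 0.0109). Srf was at 4.05, 3.04 and 3.30 FPKM in chow Jnk1 and at 2.57, 2.21 and 2.57 in chow Jnk2, a change of -0.19 (adjusted p = 0.398) and of -0.56 (adjusted p = 0.0124).

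Tested directly, chow Jnk1Jnk2 differed from chow Jnk1 at 10 of the 17 loci, where 3.52% of all tested loci were called, and from chow Jnk2 at 5, where 0.0473% were. The same chow Jnk1Jnk2 libraries picked the 17 loci, so part of the excess over all loci comes from that choice. Those that differed from chow Jnk2 included Mapk8 (-1.0, adjusted p = 5.92e-05), Fam25c (-3.46, adjusted p = 5.17e-06) and Gm3219 (-1.86, adjusted p = 0.000838). Jund differed from chow Jnk1 by -0.73 (adjusted p = 0.0148) and from chow Jnk2 by -0.17 (adjusted p = 1). Dusp6 differed from chow Jnk1 by -0.89 (adjusted p = 0.00379). BC044868 was among the 2 that differed from both single knockouts.

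**Figure D3:**
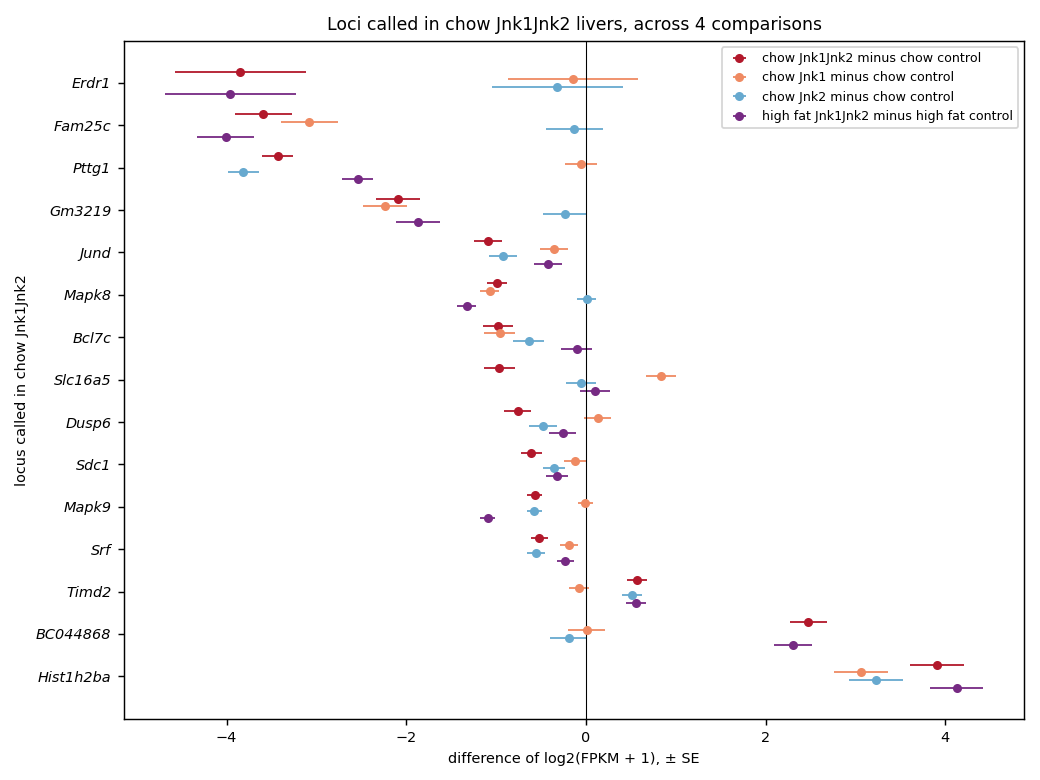
Difference of log2(FPKM + 1) ± SE (x axis) of 15 of the 17 called loci (y axis) in chow Jnk1Jnk2, chow Jnk1 and chow Jnk2 against chow control and in high fat Jnk1Jnk2 against high fat control. Fam25c, Gm3219 and Mapk8 lie near 0 in Jnk2, Pttg1 and Mapk9 near 0 in Jnk1, and BC044868 is high at 2.48 and 2.31 in Jnk1Jnk2 on the chow and high fat diets and near 0 in both single knockouts.

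The high fat libraries are other samples, so they give a second look at the same genotype. The high fat Jnk1Jnk2 libraries stood apart, however. Their deviations correlated with transcript length at -0.596, -0.644 and -0.592 (Spearman, across loci), against 0.35, -0.094 and 0.226 in high fat control. Their sums of FPKM were 849038, 873399 and 852069, against 634849, 696265 and 668941 in high fat control. The part of this in the counts of called loci that follow was not tested. Of the 17 loci 12 were also called in the same direction between high fat Jnk1Jnk2 and high fat control, 9 lower and 3 higher. But on that diet 51.2% of all tested loci were called in either direction, 3338 of 10562 lower and 2072 higher. Among the 12 were the targeted Mapk8 and Mapk9, whose fall was set by the design. Fam25c, Gm3219, Pttg1 and Timd2, which lie near the targeted genes, were also among the 12. BC044868 was at 9.92, 12.3 and 7.66 FPKM in high fat Jnk1Jnk2 and at 0.657, 1.75 and 1.28 in high fat control. Erdr1 was at 5.03, 1.57 and 0.921 FPKM in high fat Jnk1Jnk2, against 46.2, 45.7 and 49.9 in high fat control. Each of these separated as widely as on chow. The difference between the diets in the effect of genotype also holds the chow libraries that picked the 17 loci. It was called at 34.9% of tested loci and at 6 of the 17, among them Pttg1, Jund, Mapk9, Bcl7c and Slc16a5. With each library's trend on transcript length removed, the difference of Slc16a5 was called (0.94, adjusted p = 0.0144), though not with the GC trend removed as well (0.77, adjusted p = 0.056), and those of the other 4 named loci were not (adjusted p = 0.193 to 0.249).

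Jund was at 20.1, 24.7 and 16.5 FPKM in high fat Jnk1Jnk2 and at 28.1, 24.2 and 30.3 in high fat control, so the mutants were near their chow level and the high fat controls were below the chow controls. Its change on high fat was -0.42 (adjusted p = 0.0295), and the diet difference was 0.67 (adjusted p = 0.0249), or -0.06 with length and GC trends removed. Bcl7c was at 4.64, 7.18 and 6.71 FPKM in high fat Jnk1Jnk2 and at 7.36, 5.33 and 7.35 in high fat control, with overlap. Slc16a5 was at 11.7, 7.92 and 9.12 FPKM in high fat Jnk1Jnk2 and at 8.03, 8.19 and 10.1 in high fat control, also with overlap.

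Of 36 gene lists 31 had 0 called members at an adjusted p under 0.05 in limma; the 5 with a called member were the JNK cascade, other MAP kinases, AP-1, cell cycle and histone lists. Fgf21, the hormone gene, was at 12.6, 12.2 and 6.36 FPKM in chow Jnk1Jnk2 and at 8.84, 8.21 and 11.5 in chow control, with a change of 0.08 ± 0.44 (adjusted p = 0.972) whose sign turned with array weights (-0.0019). Ppara, which encodes its activator, was at 37.3, 41.1 and 44.2 FPKM in the mutants and at 36.9, 34.3 and 38.5 in the controls (0.15 ± 0.11, adjusted p = 0.597). For both the groups overlapped. Lpin1, a phosphatidate phosphatase and PPARα coactivator gene, was at 36.2, 33.2 and 28.4 FPKM in the mutants, against 7.38, 21.7 and 18.7 in the controls (1.11 ± 0.45, adjusted p = 0.318), and at 0.66 without chow control replicate 1.

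Of 49 tested PPARα targets and fatty acid oxidation genes 2 were higher (4.08%) and 0 lower at an unadjusted p under 0.05, against 2.06% and 10.6% of all tested loci, and their median was 0.0173. Vnn1, a pantetheinase gene induced by PPARα, was at 58.7, 52.2 and 45.1 FPKM in chow Jnk1Jnk2, against 41.8, 38.4 and 28.3 in chow control (0.52 ± 0.13, adjusted p = 0.156). Hadha, a mitochondrial β-oxidation enzyme gene, was at 131, 139 and 130 FPKM in the mutants, against 99.5, 114 and 117 in the controls (0.28 ± 0.11, adjusted p = 0.301). Neither passed. In this list 8 members lay wholly above control and 8 wholly below (16.3% each), against 4.11% and 20.1% of all tested loci; among those below were Acot3, an acyl-CoA thioesterase gene, at 13.2, 16.2 and 11.6 FPKM in the mutants against 26.6, 22.4 and 19.0 in the controls (adjusted p = 0.447), and Eci1, an enoyl-CoA isomerase gene. The lipogenesis list had 2 of 28 members lower at an unadjusted p under 0.05 (7.14%, against 10.6% of all tested loci) and a median of -0.0324, positive with size factors (0.051). Acsl3, an acyl-CoA synthetase gene whose locus also holds Utp14b, was at 2.79, 3.02 and 2.73 FPKM in the mutants and at 6.31, 4.89 and 3.94 in the controls (-0.63 ± 0.16, adjusted p = 0.155). Hsd17b13, a lipid droplet protein gene, was at 266, 290 and 270 in the mutants against 356, 378 and 459 in the controls (-0.52 ± 0.18, adjusted p = 0.262).

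In the bile acid list, 2 of 27 members were higher (7.41%) and 1 lower (3.7%) at an unadjusted p under 0.05, against 2.06% and 10.6% of all tested loci. Slco1b2, which encodes an organic anion transporter, was at 423, 377 and 398 FPKM in chow Jnk1Jnk2 and at 306, 290 and 280 in chow control (0.45 ± 0.14, adjusted p = 0.22). Slc10a1, which encodes the sodium-dependent bile acid carrier NTCP, was at 291, 292 and 294 FPKM in the mutants against 240, 252 and 213 in the controls (0.32 ± 0.11, adjusted p = 0.259). Slc30a10, a manganese exporter gene, was at 5.14, 5.03 and 4.38 FPKM in the mutants and at 7.74, 6.36 and 6.87 in the controls (-0.45 ± 0.12, adjusted p = 0.189). In the single knockouts Slc30a10 changed by -1.57 in chow Jnk1 and -0.84 in chow Jnk2 (adjusted p = 8.37e-07 and 0.00402), and chow Jnk1Jnk2 lay above chow Jnk1 by 1.12 (adjusted p = 3.93e-05). Cyp7a1, whose enzyme sets the pace of bile acid synthesis, was at 32.8, 29.4 and 31.2 FPKM in the mutants, against 15.9, 17.7 and 27.8 in the controls (0.62 ± 0.34, adjusted p = 0.462).

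Insulin signalling and glucose genes had 0 called members, and 4 of 27 were lower and 0 higher at an unadjusted p under 0.05, which is 14.8% against 10.6% of all tested loci. Akt1 was at 17.1, 18.6 and 15.2 FPKM in chow Jnk1Jnk2 and at 21.9, 23.7 and 21.0 in chow control (-0.37 ± 0.12, adjusted p = 0.22), and Akt2, the other main AKT kinase of liver, at 20.8, 22.8 and 20.0 in the mutants against 25.1, 24.0 and 26.8 in the controls (adjusted p = 0.308). G6pc, which encodes glucose-6-phosphatase, was at 137, 162 and 124 FPKM in the mutants and at 222, 211 and 169 in the controls (-0.50 ± 0.23, adjusted p = 0.368). Irs1, an insulin receptor substrate gene, was at 1.71, 1.95 and 2.51 FPKM in the mutants and at 2.87, 2.25 and 2.84 in the controls, with overlap (adjusted p = 0.348). Of the 27 members 6 lay wholly below control (22.2%), near the 20.1% of all tested loci. In the growth hormone list 3 of 21 members were lower (14.3%) and 1 higher (4.76%) at that threshold. Igf1 was at 85.8, 93.5 and 87.8 FPKM in the mutants and at 106, 107 and 101 in the controls (-0.23 ± 0.08, adjusted p = 0.273), and Stat5b, the transcription factor gene through which growth hormone acts, at 8.61, 8.51 and 7.44 in the mutants against 10.9, 9.89 and 9.53 in the controls (adjusted p = 0.269).

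Of 38 xenobiotic metabolism genes 6 were lower (15.8%) and 4 higher (10.5%) at an unadjusted p under 0.05, against 10.6% and 2.06% of all tested loci. Gstm3, a glutathione transferase gene, was at 2.72, 2.71 and 2.52 FPKM in chow Jnk1Jnk2 and at 6.06, 5.69 and 10.1 in chow control (-1.14 ± 0.31, adjusted p = 0.183). Gsta2, of the same superfamily, was at 3.94, 4.30 and 6.87 FPKM in the mutants against 10.2, 8.80 and 10.8 in the controls (-0.89 ± 0.24, adjusted p = 0.189). Among cytochrome P450 genes, Cyp3a25 was at 223, 268 and 247 FPKM in the mutants and at 334, 315 and 302 in the controls (adjusted p = 0.22), while Cyp2c38 was at 16.2, 15.4 and 13.8 in the mutants against 10.8, 8.64 and 10.3 in the controls (adjusted p = 0.268). All 4 belong to multigene families whose copies may share reads.

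Genes of protein synthesis and turnover had 0 called members. Of 37 proteasome subunits 8 were higher and 0 lower at an unadjusted p under 0.05, which is 21.6% against 2.06% of all tested loci, and their median was 0.0574, above 0 with every library left out and under both other scalings. Psma5 was at 102, 75.5 and 89.4 FPKM in chow Jnk1Jnk2 and at 60.7, 73.3 and 62.8 in chow control (0.43 ± 0.12, adjusted p = 0.202), and Psmc2 at 46.0, 46.3 and 44.8 in the mutants against 34.8, 40.8 and 40.3 in the controls (adjusted p = 0.269). Of 78 cytosolic ribosomal protein genes 11 were higher (14.1%) and 3 lower (3.85%) at that threshold, against 2.06% and 10.6% of all tested loci. Their median was 0.103, or 0.07 with quantile normalization and 0.025 to 0.176 with 1 library left out. Rps12 was at 1021, 779 and 1155 FPKM in the mutants and at 411, 604 and 541 in the controls (0.92 ± 0.28, adjusted p = 0.218), Rps25 at 792, 537 and 828 in the mutants against 344, 446 and 414 in the controls, and Rps24 at 613, 444 and 732 in the mutants against 260, 384 and 333 in the controls. In each of these chow Jnk1Jnk2 replicate 2 was the lowest of the mutants, and ribosomal protein genes have many near-identical pseudogene copies.

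The unfolded protein and ATF4 list had 4 of 31 members lower (12.9%) and 3 higher (9.68%) at an unadjusted p under 0.05, against 10.6% and 2.06% of all tested loci. Atf4, the transcription factor gene of the integrated stress response, was at 38.4, 42.6 and 32.4 FPKM in chow Jnk1Jnk2 and at 56.8, 48.9 and 43.0 in chow control (-0.38 ± 0.13, adjusted p = 0.248). Hsp90b1, an endoplasmic reticulum chaperone gene, was at 219, 195 and 216 FPKM in the mutants against 191, 156 and 174 in the controls (0.28 ± 0.09, adjusted p = 0.249), and Pdia3, a protein disulfide isomerase gene, at 133, 104 and 117 in the mutants against 96.3, 87.4 and 98.2 in the controls (adjusted p = 0.301). Among amino acid enzymes 4 of 36 were lower (11.1%) and 1 higher (2.78%) at that threshold, near the shares of all loci. Gls2, the liver glutaminase gene, was at 107, 123 and 134 FPKM in the mutants against 162, 149 and 205 in the controls (-0.50 ± 0.15, adjusted p = 0.213), Bckdhb, of branched-chain keto acid breakdown, at 56.4, 63.3 and 57.6 in the mutants against 77.3, 73.6 and 70.5 in the controls (adjusted p = 0.176), and Hpd, of tyrosine breakdown, at 1585, 1422 and 1712 in the mutants against 1177, 1176 and 1357 in the controls (adjusted p = 0.249).

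Cell death, inflammation and cell type lists had 0 called members. In the cell death and TNF list 4 of 27 were lower (14.8%) and 0 higher at an unadjusted p under 0.05, against 10.6% and 2.06% of all tested loci. Rela, the NF-κB p65 gene, was at 12.5, 14.3 and 13.3 FPKM in chow Jnk1Jnk2 and at 15.5, 15.8 and 18.3 in chow control (-0.28 ± 0.10, adjusted p = 0.252), and Traf2, an adaptor of the TNF receptor upstream of JNK, at 2.46, 2.29 and 2.69 in the mutants against 3.20, 4.14 and 2.99 in the controls (adjusted p = 0.283). The summed level of 27 macrophage markers was between 328 and 353 FPKM in the mutants and between 287 and 446 in the controls, with overlap. The complement gene C1qa was at 26.0, 28.7 and 27.1 FPKM in the mutants against 31.9, 43.0 and 39.4 in the controls (adjusted p = 0.269), while Spp1, which encodes osteopontin and marks cholangiocytes as well as some macrophages, was at 29.6, 28.3 and 25.4 in the mutants against 14.1, 22.1 and 13.9 in the controls (0.73 ± 0.20, adjusted p = 0.191). Aqp1, a water channel gene of cholangiocytes, was at 20.1, 20.4 and 18.8 FPKM in the mutants against 21.1, 26.2 and 23.5 in the controls (-0.24 ± 0.11, adjusted p = 0.369). Spp1 and Aqp1 were the 1 higher and the 1 lower of 6 tested cholangiocyte markers at an unadjusted p under 0.05, and the median of that list was -0.0748. The 14 cholangiocyte markers in the table summed to 62.3 to 66.4 FPKM in the mutants and to 53.6 to 65.2 in the controls. Mmp7, a matrix metalloproteinase of bile duct epithelium, was at 2.18, 2.23 and 1.57 FPKM in the mutants against 0.318, 0.851 and 0.336 in the controls (1.01 ± 0.26, adjusted p = 0.167), and Scara5, a ferritin receptor gene, at 2.28, 2.03 and 2.73 in the mutants against 0.613, 0.765 and 0.893 in the controls (adjusted p = 0.191).

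The cell cycle list had 1 of 29 tested members called, against 0.161% of all tested loci, and that was Pttg1, which starts 6.43 Mb from Mapk9. At an unadjusted p under 0.05 it had 2 higher (6.9%) and 2 lower (6.9%), against 2.06% and 10.6% of all tested loci. Btg1, an antiproliferative gene, was at 9.35, 10.4 and 9.61 FPKM in chow Jnk1Jnk2, against 14.4, 13.8 and 12.5 in chow control (-0.43 ± 0.12, adjusted p = 0.183), and had fallen in chow Jnk1 and chow Jnk2 by 0.69 and 0.67 (adjusted p = 0.0035 and 0.0115). The muscle, adipose and pancreas list had 12 tested members, 1 lower (8.33%) and 0 higher at an unadjusted p under 0.05, against 10.6% and 2.06% of all tested loci. That member, Cfd, the adipocyte gene of complement factor D, was at 0.464, 0.0724 and 0.673 FPKM in the mutants and at 2.59, 2.49 and 4.90 in the controls (adjusted p = 0.338).

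**Figure D4:**
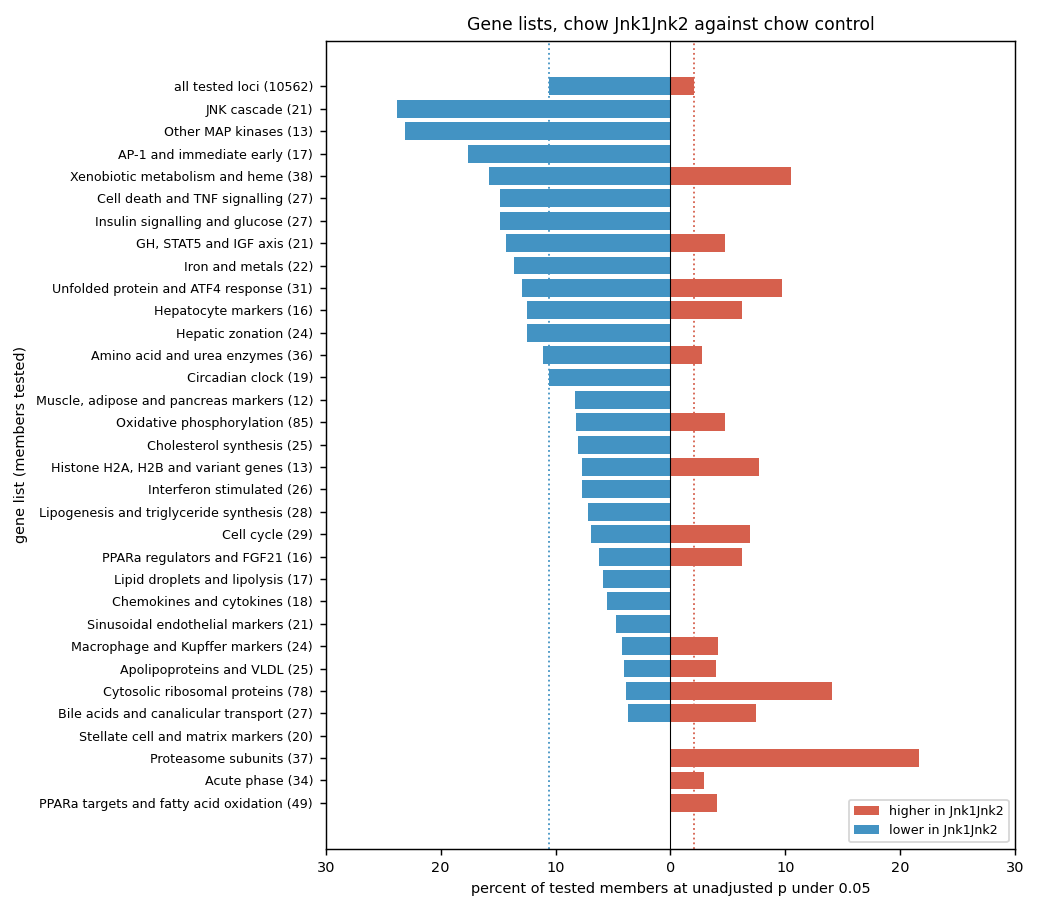
Percent of the tested members of each gene list (rows, with the number tested) at an unadjusted p under 0.05, higher in chow Jnk1Jnk2 to the right and lower to the left, for lists with at least 10 tested members; dotted lines mark the shares of all tested loci, 2.06% and 10.6%. The proteasome list reaches 21.6% on the higher side. On the lower side the JNK cascade list, which counts the targeted Mapk8 and Mapk9, reaches 23.8% and the other MAP kinases list 23.1%.

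Over all loci the lean was downward. Of the 10562 tested loci, 1334 (12.6%) had an unadjusted p under 0.05, 218 higher and 1116 lower in chow Jnk1Jnk2. This balance went with the scaling of the libraries, since it was 473 higher and 591 lower with size factors and 544 and 592 with quantile normalization. The median change of all tested loci was -0.0735, and -0.0044 with size factors. The count was 871 without chow Jnk1Jnk2 replicate 3.

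The changes also went with base composition. In the tenth of loci with the lowest transcript GC content the median change was 0, with 47 loci higher and 31 lower at an unadjusted p under 0.05. In the tenth with the highest it was -0.191, with 3 higher and 253 lower. The median GC content was 46.6% among the loci that were higher, 55% among those lower and 50.7% among all. By library, the Spearman correlation across loci of a library's deviation with GC content was -0.347, -0.0767 and -0.302 in chow Jnk1Jnk2, and 0.0271, -0.0222 and 0.0382 in chow control, so replicates 1 and 3 of the mutants carried the trend. Loci are not independent replicates, and this correlation is given as a description with no test. With the trends on length and GC content removed 559 loci were higher and 493 lower at an unadjusted p under 0.05, and 10 were called. With the length trend alone removed 586 were higher and 592 lower. Removing a trend also levels each library, so these balances do not tell what part GC content had in the downward lean.

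**Figure D5:**
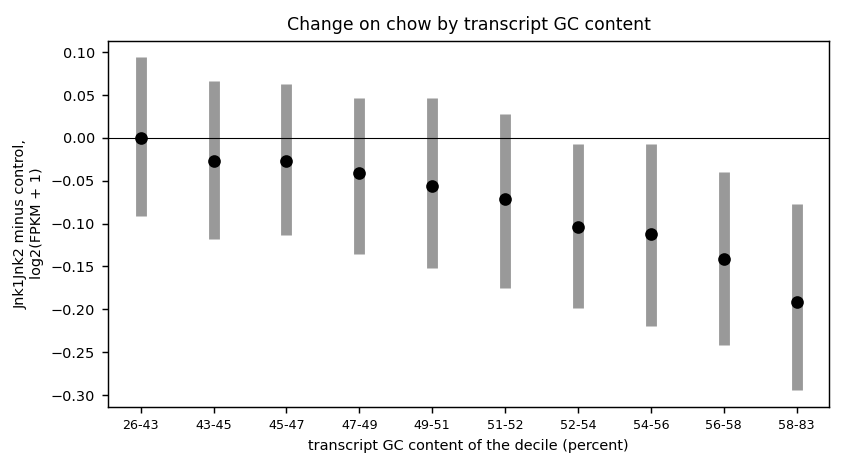
Difference of log2(FPKM + 1) between chow Jnk1Jnk2 and chow control (y axis) in 10 bins of tested loci by transcript GC content (x axis, percent), with the median as a point and the quartiles as a bar. The medians descend from 0 in the lowest bin to -0.191 in the highest.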

How the data were processed

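The data are 24 RNA-seq libraries of mouse liver, with RNA isolated by RNeasy and quality read on a Bioanalyzer, per the labels' protocols. The deposited table holds FPKM per locus, made with TopHat, Cufflinks and Cuffdiff on mm10, per the submitters' processing notes; versions and strand settings are not given in the sources used here. Exact 0 values can be failed estimates. For this reason 6 loci listed at 0 in some libraries, such as Alb, were not named. These had a median of at least 10 FPKM over the 24 libraries, and very short loci were not screened. Locus starts were taken as counted from 0 and written from 1. FPKM hold no counts, so no counting interval can be given.

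Groups were taken from titles and genotypes. limma 3.58.1 in R 4.3.3 was fitted with an expression trend to log2(FPKM + 1) of all 24 libraries with 8 group means, for the 10562 loci with a mean of at least 1 FPKM, with Benjamini-Hochberg adjustment and a threshold of 0.05. The procedure was also run on simulated data, and the outcome of that run is not reported here. Gene lists were described by counts. GC content and length came from GENCODE vM21 by name, for 96.6% of tested loci. Promoters came from RefSeq (GRCm38.p6) by symbol. Alternatives were other pseudocounts (0.1 and 0.5), filters, size factors, quantile normalization, array weights, a replicate block, fewer groups, removal of length and GC trends, and leaving out each library.

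Genes named were taken from the JNK pathway with Fgf21 and Ppara, all called loci, up to 4 members per list with the smallest p, the 10 largest rises and falls among loci at an unadjusted p under 0.05 whose libraries did not overlap, and loci within 5 Mb of Mapk8 or Mapk9 at an unadjusted p under 0.05; not all are printed, and 2 called loci are counted but not reported here. The comparison, members and lists were chosen with earlier results of these data known.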

Additional observations from a re-analysis of the deposited data

Results flagged for a closer look

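The effect of losing both kinases was compared between the diets at the 69 genes followed through the settings, 2 of them not reported here. Among the rest it differed at 24 by the test of the difference itself (limma, Benjamini-Hochberg adjusted p under 0.05). Of these, 10 went upward and 14 downward on high fat relative to chow. Such a difference was called at 34.9% of all tested loci, and the share among the genes followed was near that. Values are the high fat effect minus the chow effect on the log2(FPKM + 1) scale, each effect being Jnk1Jnk2 minus control with 3 libraries per group.

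Among JNK pathway genes the difference was -0.53 for Mapk9, -0.4 for Map2k4, -0.62 for Dusp16 and 0.67 for Jund. With each library's trend on transcript length removed these were -0.17, -0.17, -0.34 and 0.41, and none was called (adjusted p = 0.131 to 0.217). Among the other called loci it was 0.89 for Pttg1, 0.87 for Bcl7c and 1.07 for Slc16a5. Fgf21 had 2.0, with 39.5, 44.8 and 54.2 FPKM in high fat Jnk1Jnk2 and 6.29, 10.4 and 15.4 in high fat control, while its chow groups overlapped; with the length trend removed the difference was 1.54 (adjusted p = 0.0897), and with the GC trend removed as well 1.43 (adjusted p = 0.132). Ppara had -0.84 and Lpin1 -2.22.

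Among transporters and bile acid genes the difference was -0.73 for Slco1b2, -0.42 for Slc10a1, -0.99 for Slc30a10 and -2.29 for Cyp7a1, which was at 14.3, 9.35 and 19.2 FPKM in high fat Jnk1Jnk2 and at 42.8, 52.7 and 42.2 in high fat control. In the stress response it was 0.99 for Atf4, -1.01 for Hsp90b1 and -0.85 for Pdia3. It was -0.54 for Stat5b, 1.17 for Gsta2, -0.87 for Cyp2c38, 1.28 for C1qa, 0.41 for Bckdhb, -1.47 for Scara5 and 0.68 for Mgat1. With each library's trend on transcript length removed 13 of the 24 differences were called and 11 were not, and with the GC trend removed as well 9 were called and 15 were not. The 11 lost with the length trend removed were Mapk9, Map2k4, Dusp16, Jund, Pttg1, Bcl7c, Fgf21, Stat5b, Gsta2, Cyp2c38 and Bckdhb, and Slc16a5, Slco1b2, Slc30a10 and C1qa were lost once GC was removed as well.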

How the results depend on the processing

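The count of called loci, 17 as reported, was 447 with array weights (43 higher and 404 lower), 7 in a fit of the 2 groups alone, 10 in a fit of the chow libraries alone, 10 with length and GC trends removed, and 9 to 13 with 1 library left out; the cause was not tested, beyond that the smaller fits hold fewer libraries. Loci at an unadjusted p under 0.05, 1334 as reported, numbered 2407 with array weights and 871 to 1388 with 1 library left out. Loci whose groups do not overlap, 2552 as reported, numbered 3229 to 3986 with 1 library left out, where 2 libraries face 3. The 3 counts were within 1.5 times their reported values under the other settings that gave them. Of the 17 loci 5 were called in every setting fitted: Pttg1, Hist1h2ba, Gm3219, Fam25c and BC044868. BC044868, which had no length or GC content, was not fitted with those trends removed or with the filter of at least 5 FPKM. Of the 69 genes carried through the settings, the chow change of 1 turned sign, that of Fgf21, which was -0.0019 with array weights and -0.0773 to 0.37 with 1 library left out. The diet difference of Jund was -0.0579 with length and GC trends removed.

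Whether replicate numbers pair the samples was not settled. The deviations of same-numbered chow Jnk1Jnk2 and chow control libraries correlated at -0.091, 0.089 and -0.045. With 3 libraries per group these values cannot decide it. With the replicate number as a block 17 loci were called, 16 of them among the reported 17, and Dusp6 had an adjusted p of 0.0549. Depth is known only relative to other libraries, so the precision at low FPKM could not be set. Removal of the GC trend was chosen after seeing the data.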
